A study of Homo sapiens with 4 samples.

Results

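NADPH is the electron donor that cells spend on fatty acid and sterol synthesis and on the reduction of glutathione and thioredoxin, and 9 genes of the enzymes that make it, or that run in the same pathways, were described in 2 human lung adenocarcinoma cell lines. The genes were taken by name from the deposited tables, which hold 43622 genes. They were PGD, PGLS, TKT and TALDO1 of the pentose phosphate pathway, the isocitrate dehydrogenases IDH1 and IDH2, the malic enzymes ME1 and ME2, and the folate enzyme MTHFD2. All 9 passed the filter on low counts, which kept 15273 genes. The study compared spheroid culture, in which cells grow as floating clusters and which its authors use for cancer stem cells, with adherent culture, in which cells grow attached to plastic, and asked about triacylglycerol synthesis. The libraries were H1993 spheroid, H1993 adherent, A549 spheroid and A549 adherent, with 1 messenger RNA library each and no treatment, inhibitor or knockdown named in their labels. H1993 is usually known for amplification of the receptor gene MET, and A549 for constant activity of NRF2, the transcription factor of the antioxidant response.

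The oxidative branch of the pentose phosphate pathway makes NADPH in the cytosol, where PGLS opens the lactone ring and PGD, 6-phosphogluconate dehydrogenase, carries out the second NADPH-forming step. TKT (transketolase) and TALDO1 (transaldolase) form the reversible branch that connects ribose phosphate with glycolysis and make no NADPH themselves. IDH1 in cytosol and peroxisomes and IDH2 in mitochondria make NADPH from isocitrate. ME1 makes it from malate in the cytosol, while the mitochondrial ME2 can use NAD and NADP and mostly makes NADH. MTHFD2, a mitochondrial enzyme of one-carbon folate metabolism, also mostly uses NAD. The set is thus broader than its common name. In many tissues PGD, TKT, TALDO1 and ME1 are known targets of NRF2, and MTHFD2 is a known target of ATF4, the factor of the amino acid stress response.

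Each promoter window ran from 250 bases before to 50 bases after the RefSeq transcription start (GRCh38.p14). All 9 genes were found there, in 10 windows, since IDH1 has 2. The windows were searched on both strands for TGACNNNGC, the core of the antioxidant response element to which NRF2 binds, and for TGATGNAA, a core of the element to which ATF4 binds with its partners. The first motif was present in 13.35% and the second in 3.62% of 35116 windows of the same length over all genes. The first was found in windows of PGD, IDH1, ME1 and MTHFD2, and the second in no window of the 9 genes. The windows of 4 genes are printed because they belong to the members at least 2-fold apart in the H1993 pair, spheroid over adherent (PGD, TKT and MTHFD2) and to the one member with more than 1 match (ME1). Capitals mark the matches to TGACNNNGC on either strand.
PGD, chr1:10398814-10399113, forward strand: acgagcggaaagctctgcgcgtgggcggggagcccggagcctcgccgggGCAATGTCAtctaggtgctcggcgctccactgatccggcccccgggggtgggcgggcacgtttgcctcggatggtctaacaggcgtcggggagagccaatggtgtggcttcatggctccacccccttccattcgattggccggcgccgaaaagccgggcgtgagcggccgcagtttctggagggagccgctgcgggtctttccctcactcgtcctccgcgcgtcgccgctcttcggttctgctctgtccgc
TKT, chr3:53255973-53256272, reverse strand: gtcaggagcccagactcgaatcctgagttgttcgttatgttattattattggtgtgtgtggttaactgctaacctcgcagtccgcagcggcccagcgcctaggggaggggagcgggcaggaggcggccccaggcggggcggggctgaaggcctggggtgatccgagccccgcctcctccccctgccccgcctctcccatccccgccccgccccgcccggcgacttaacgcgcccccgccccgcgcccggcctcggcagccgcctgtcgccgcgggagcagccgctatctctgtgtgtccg
ME1, chr6:83431002-83431301, reverse strand: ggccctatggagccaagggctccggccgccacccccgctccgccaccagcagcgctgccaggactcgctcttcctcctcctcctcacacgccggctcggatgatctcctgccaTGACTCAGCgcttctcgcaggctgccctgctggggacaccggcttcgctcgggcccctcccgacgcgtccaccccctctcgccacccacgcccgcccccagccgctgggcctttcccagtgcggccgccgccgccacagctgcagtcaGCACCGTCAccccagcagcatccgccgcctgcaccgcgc
MTHFD2, chr2:74198365-74198664, forward strand: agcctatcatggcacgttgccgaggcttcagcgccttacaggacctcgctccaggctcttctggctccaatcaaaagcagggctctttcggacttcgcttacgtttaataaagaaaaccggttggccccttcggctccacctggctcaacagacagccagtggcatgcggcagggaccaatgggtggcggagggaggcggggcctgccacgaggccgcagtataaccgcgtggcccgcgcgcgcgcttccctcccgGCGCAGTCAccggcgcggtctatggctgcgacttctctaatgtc

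Counting the start as base 0, the PGD match lay at -201 to -193, those of ME1 at -137 to -129 and at 11 to 19, that of MTHFD2 at 6 to 14, and that of IDH1 at -143 to -135. TKT, which was lower together with PGD in H1993 spheroids, had no match of these letters in its window. A match describes the letters only, and binding was not measured.

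The library labelled H1993 adherent resembled A549 adherent cells more than H1993 spheroids. Between the 2 libraries labelled adherent, 12.4% of the 15273 genes stood at least 2-fold apart with a counting interval that excluded no change, and the Pearson correlation of log2 CPM (read counts scaled to library size with TMM factors) across genes was 0.947. For H1993 spheroids over their labelled adherent partner (the H1993 pair) these values were 35.0% and 0.846. They were 22.7% and 0.899 for A549 spheroids over A549 adherent cells (the A549 pair), and 37.1% and 0.81 between the spheroid libraries. The cause was not tested. Values of the H1993 pair rest on the library labelled H1993 adherent. Those of the A549 pair and between the 2 spheroid libraries use none of its counts directly. The filter and the scaling factors were set over all 4 libraries, however. Total exonic reads lay between 15331121 and 17681746 per library. Without replicate libraries no spread within a line and culture is known, and the intervals below cover counting error only. Per the labels both lines are lung epithelial cells, and the keratin genes KRT8 and KRT18 had at least 18583 reads in every library. The lung lineage markers NKX2-1, SFTPB and SFTPC had at most 13. The 11 epithelial markers summed to 12090 CPM in H1993 spheroids, 4211 in the library labelled H1993 adherent, 5879 in A549 spheroids and 10970 in A549 adherent cells. Single markers did not all follow that sum, to which keratins such as KRT8 gave many reads. EPCAM had 4716 reads in H1993 spheroids, 266 in the library labelled H1993 adherent, 308 in A549 spheroids and 413 in A549 adherent cells. KRT7 had 17030, 19280, 10297 and 34446 in the same order. Of the mesenchymal markers, VIM had 1456, 10111, 16867 and 8449, and FN1 had 27022, 27998, 41609 and 15198. The 10 mesenchymal markers summed to between 1607 and 3601 CPM, the 5 endothelial markers to at most 8.0 and the 6 blood markers to at most 12.4, with HBB at 0 in every library. The part of these differences in the results was not tested.

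PGD was the member with the largest difference between libraries, and H1993 spheroids alone were low. PGD (ENSG00000142657, chromosome 1, 10398592 to 10420144, forward strand, hg38) had 238 TPM (the deposited level, scaled by exon length and by library) in H1993 spheroids, 1380 in the library labelled H1993 adherent, 960 in A549 spheroids and 1555 in A549 adherent cells. Its rank among all genes by TPM was 580 in H1993 spheroids, 45 in the library labelled H1993 adherent, 99 in A549 spheroids and 50 in A549 adherent cells. In the H1993 pair, with 3009 exonic reads in spheroids and 20875 in the library labelled adherent, the log2 fold was -2.61 (95% counting interval -2.67 to -2.56). In that pair 4.49% of the 15273 genes had a lower fold. Against A549 spheroids, with 14771 reads, the H1993 spheroid log2 fold was -2.18 (-2.24 to -2.12). In A549 spheroids over A549 adherent cells, which had 21224 reads, it was -0.59 (-0.62 to -0.56), under 2-fold, and 20.4% of genes were lower. The 2 libraries labelled adherent were close, with a log2 fold of -0.15 (-0.18 to -0.13), H1993 over A549.

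**Figure D1:**
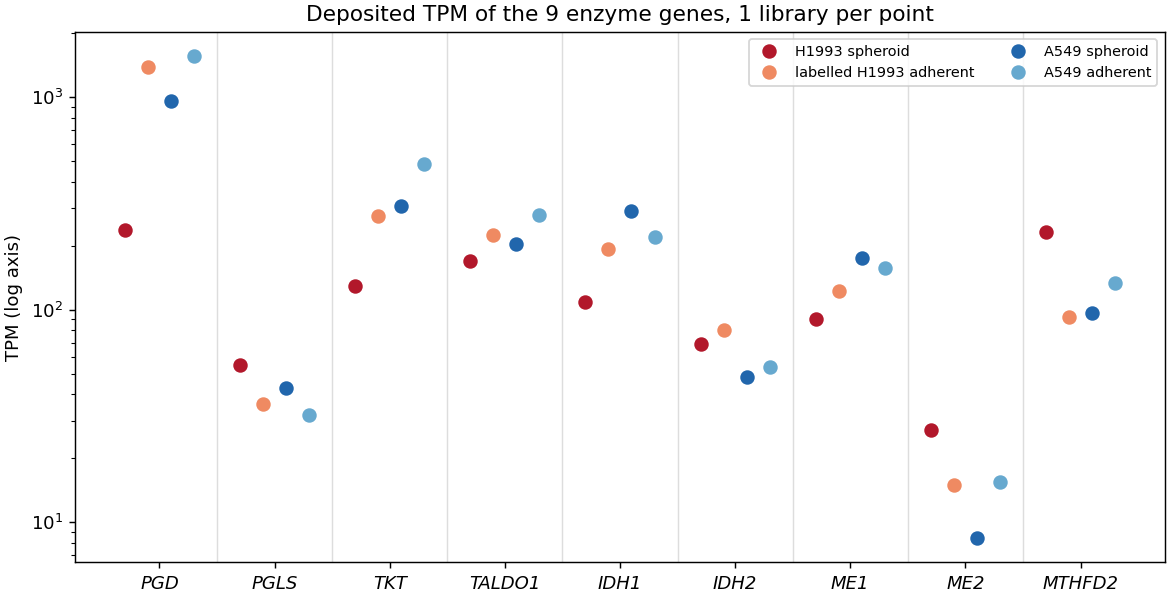
Deposited TPM of the 9 genes (log axis), with 1 point per library and the libraries in the order H1993 spheroid, labelled H1993 adherent, A549 spheroid and A549 adherent within each gene. PGD at 238 TPM in H1993 spheroids stands under the other 3 libraries, at 960 to 1555, and MTHFD2 at 233 TPM stands above the other 3, at 92.5 to 133.

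The other pentose phosphate genes were spread to both sides of no change. TKT (ENSG00000163931, chromosome 3, 53224707 to 53256052, reverse strand) had 129 TPM in H1993 spheroids, 277 in the library labelled H1993 adherent, 308 in A549 spheroids and 482 in A549 adherent cells. In both lines the spheroid library was the lower one. The log2 fold of spheroid over adherent was -1.17 (-1.22 to -1.13) in the H1993 pair and -0.54 (-0.57 to -0.51) in A549. H1993 spheroids stood at -1.42 (-1.47 to -1.37) against A549 spheroids. TKT was also the member furthest apart between the 2 libraries labelled adherent, at -0.78 (-0.81 to -0.75), H1993 over A549. TALDO1 (ENSG00000177156, chromosome 11, 747329 to 765024, forward strand) had 169 TPM in H1993 spheroids, 223 in the library labelled H1993 adherent, 204 in A549 spheroids and 279 in A549 adherent cells, so its 4 values lay close together. Its log2 folds of spheroid over adherent were -0.47 (-0.55 to -0.40) in the H1993 pair and -0.34 (-0.41 to -0.27) in A549. PGLS (ENSG00000130313, chromosome 19, 17511629 to 17521288, forward strand) went the other way from PGD, its neighbour in the pathway. It had 54.9 TPM in H1993 spheroids, 36.0 in the library labelled H1993 adherent, 42.8 in A549 spheroids and 32.1 in A549 adherent cells. The spheroid library was the higher one in both lines, at log2 folds of 0.53 (0.37 to 0.70) in the H1993 pair and 0.53 (0.35 to 0.71) in A549, both under 2-fold and from 420 to 667 reads.

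The cytosolic dehydrogenases IDH1 and ME1 had opposite signs in the 2 lines. IDH1 (ENSG00000138413, chromosome 2, 208236227 to 208266074, reverse strand) had 108 TPM in H1993 spheroids, 194 in the library labelled H1993 adherent, 291 in A549 spheroids and 219 in A549 adherent cells. The spheroid library was thus the lowest of the 4 in H1993 and the highest in A549. Its log2 fold of spheroid over adherent was -0.91 (-0.99 to -0.84) in the H1993 pair and 0.52 (0.47 to 0.58) in A549, both under 2-fold. Between the spheroid libraries, H1993 over A549, the fold was -1.59 (-1.66 to -1.52), and between the libraries labelled adherent it was -0.16 (-0.22 to -0.10). ME1 (ENSG00000065833, chromosome 6, 83210389 to 83431071, reverse strand) had the same order with smaller steps, at 90.4 TPM in H1993 spheroids, 122 in the library labelled H1993 adherent, 175 in A549 spheroids and 157 in A549 adherent cells. The log2 folds of ME1 were -0.51 (-0.61 to -0.41) in the H1993 pair, 0.27 (0.20 to 0.35) in A549 and -1.12 (-1.21 to -1.03) between the spheroid libraries.

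The 3 mitochondrial enzymes did not share the low level of PGD in H1993 spheroids. MTHFD2 (ENSG00000065911, chromosome 2, 74198562 to 74217565, forward strand) had 233 TPM in H1993 spheroids, 92.5 in the library labelled H1993 adherent, 96.4 in A549 spheroids and 133 in A549 adherent cells. H1993 spheroids alone were high. The log2 fold was 1.26 (1.19 to 1.33) in the H1993 pair, from 4835 reads in spheroids and 2296 in the library labelled adherent, and 1.11 (1.04 to 1.18) against A549 spheroids. In A549 it was -0.36 (-0.44 to -0.28). ME2 (ENSG00000082212, chromosome 18, 50878734 to 50954257, forward strand) had 27.1 TPM in H1993 spheroids, 14.9 in the library labelled H1993 adherent, 8.44 in A549 spheroids and 15.4 in A549 adherent cells. Its log2 folds of spheroid over adherent were 0.78 (0.68 to 0.89) in the H1993 pair and -0.76 (-0.90 to -0.62) in A549, both under 2-fold, and 1.52 (1.39 to 1.65) between the spheroid libraries. IDH2 (ENSG00000182054, chromosome 15, 90083045 to 90102504, reverse strand) varied least with culture, at 69.0 TPM in H1993 spheroids, 80.3 in the library labelled H1993 adherent, 48.3 in A549 spheroids and 53.7 in A549 adherent cells. Its A549 interval of -0.20 to 0.11 around a log2 fold of -0.04 included no change.

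**Figure D2:**
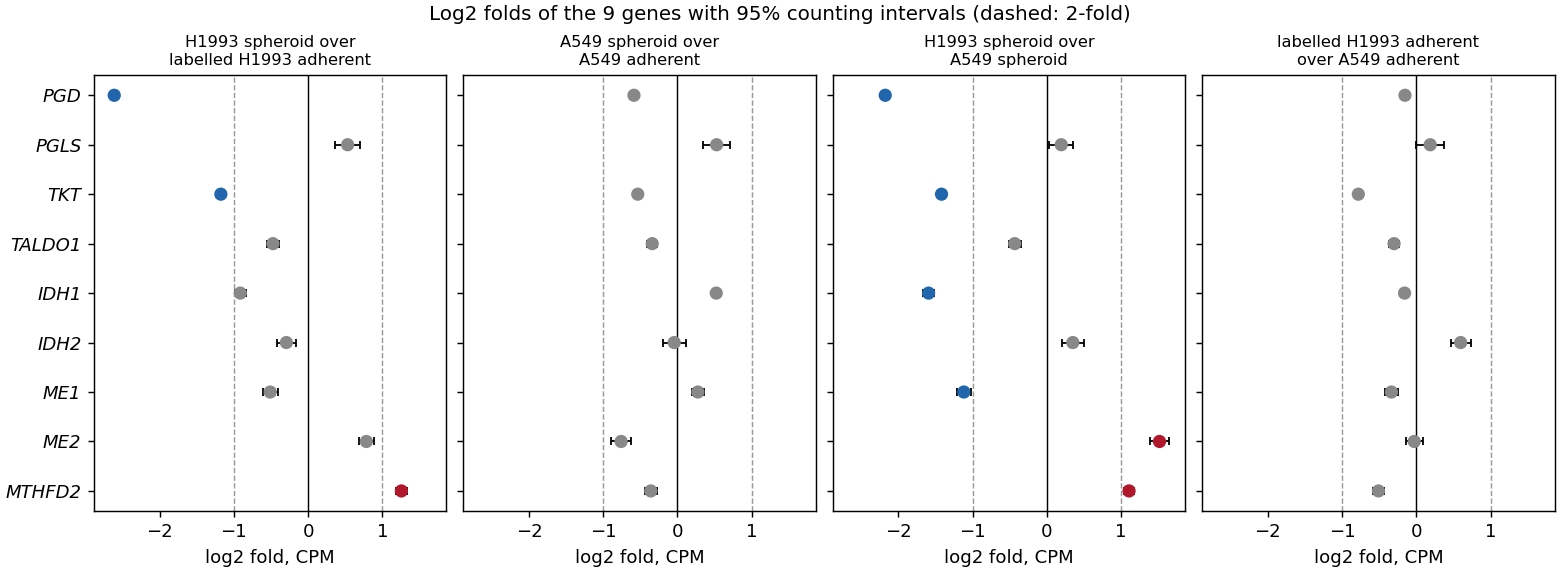
Log2 folds of scaled CPM for the 9 genes in 4 pairs of libraries, with 95% counting intervals. Blue points are at least 2-fold lower, red points at least 2-fold higher, and grey points under 2-fold. No gene of the 9 passes 2-fold in the A549 pair or between the libraries labelled adherent, against 22.7% and 12.4% of all genes. Between the spheroid libraries 6 of 9 do, against 37.1% of all genes. The shares of all genes also require an interval that excludes no change.

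With a member counted when it was at least 2-fold apart and its interval excluded no change, 1 was higher (MTHFD2) and 2 were lower (PGD and TKT) in the H1993 pair, where 17.0% of all genes were higher and 18.0% lower. In the A549 pair 0 of 9 members were higher and 0 lower, against 12.4% and 10.3% of all genes. Between the spheroid libraries, H1993 over A549, 2 members were higher (MTHFD2 and ME2) and 4 lower (PGD, TKT, IDH1 and ME1), against 18.0% and 19.1% of all genes. Between the libraries labelled adherent 0 were higher and 0 lower, against 6.94% and 5.49% of all genes. The median log2 fold of the 9 members was -0.47 in the H1993 pair, -0.34 in the A549 pair, -0.43 between the spheroid libraries and -0.16 between those labelled adherent, where the medians of all genes were 0.00, -0.00, 0.01 and 0.00. The median size of the log2 fold, whatever its sign, was 1.12 for the members between the spheroid libraries, against 0.73 for all genes. In the A549 pair it was 0.52 for the members and 0.48 for all genes. The pairs share libraries, so their values are not independent of one another.

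Over both lines, edgeR's quasi-likelihood test of culture with line as a term and Benjamini-Hochberg adjustment called 0 of 15273 genes (0%), with 1258 at an unadjusted p under 0.05. DESeq2 with the same terms called 591 genes and none of the 9 members. PGD had the lowest member p in both, with a log2 fold of -1.60 and an adjusted p of 0.641 in edgeR, and an adjusted p of 0.191 in DESeq2. PGD was lower in spheroids in both lines. Without the library labelled H1993 adherent the edgeR value of PGD, fitted without the line term, was -1.30. Both spheroid libraries are there set against A549 adherent cells, so a difference between the lines enters that value. The A549 pair alone stood at -0.59. A difference between the lines also enters the PGD values fitted so without H1993 spheroids, -0.51, and without A549 spheroids, -2.70. The fit has 1 residual degree of freedom, and the libraries may not vary as separate cultures would.

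The make-up of the set differed in H1993 spheroids. The 9 genes summed to 1118 TPM in H1993 spheroids, 2420 in the library labelled H1993 adherent, 2134 in A549 spheroids and 2926 in A549 adherent cells. PGD made up 21.3% of that sum in H1993 spheroids, 57.0% in the library labelled H1993 adherent, 45.0% in A549 spheroids and 53.1% in A549 adherent cells. The mitochondrial genes IDH2, ME2 and MTHFD2 together made up 29.4% in H1993 spheroids, against 7.75%, 7.17% and 6.92% in the other 3 libraries in the same order. PGD and MTHFD2 were nearly level by deposited TPM in H1993 spheroids, with a ratio of 1.02. That ratio was 14.9 in the library labelled H1993 adherent, 9.96 in A549 spheroids and 11.7 in A549 adherent cells. The ratio of the cytosolic to the mitochondrial isozyme was lowest in H1993 spheroids for both enzymes. For IDH1 over IDH2 it was 1.57 in H1993 spheroids, 2.41 in the library labelled H1993 adherent, 6.04 in A549 spheroids and 4.07 in A549 adherent cells. For ME1 over ME2 it was 3.34 in H1993 spheroids, 8.20 in the library labelled H1993 adherent, 20.8 in A549 spheroids and 10.2 in A549 adherent cells.

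**Figure D3:**
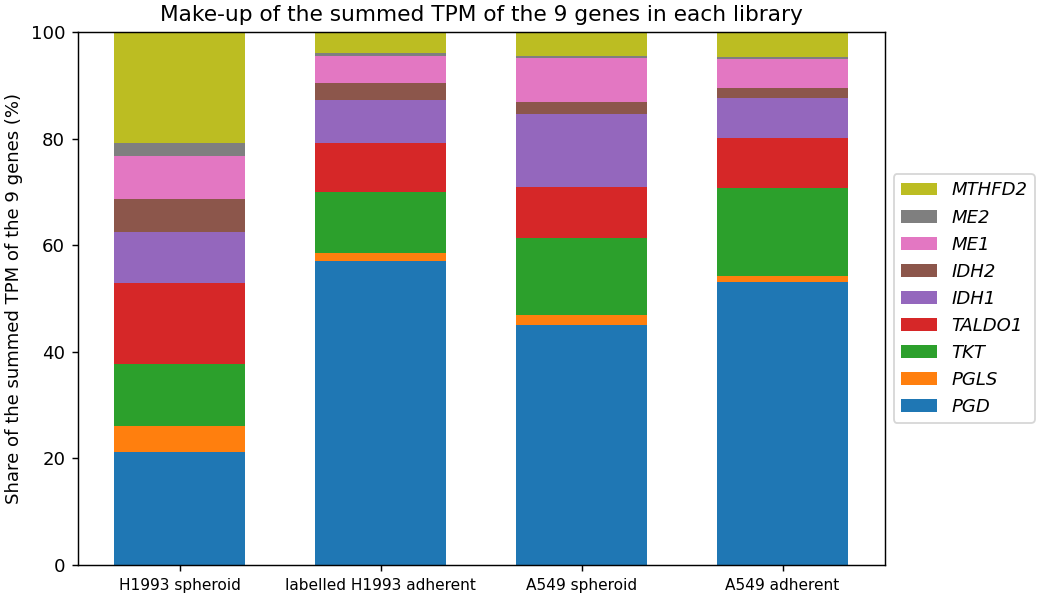
Share of each gene in the summed TPM of the 9 genes, as stacked bars from 0 to 100%, with 1 bar per library. PGD takes 21.3% of the H1993 spheroid bar and 45.0% to 57.0% of the others, and MTHFD2 takes 20.8% of the H1993 spheroid bar and 3.82% to 4.56% of the others.

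The order of the genes by level depends on the length used for scaling. The deposited TPM divides by the length of all annotated exons together, which is 9507 bases for TKT and 16243 for ME2. Their annotated transcripts with the longest coding sequence are 2075 and 9415 bases in GENCODE release 29. By deposited TPM, PGD was the highest and ME2 the lowest of the 9 in every library. Per length of that 1 transcript ME2 was still the lowest in every library, but TKT was the highest in H1993 spheroids, at 165 CPM per kilobase, followed by TALDO1 at 105 and PGD at 104. In A549 spheroids PGD stood at 471 and TKT at 441 CPM per kilobase, and in A549 adherent cells at 708 and 639. TKT relative to PGD was thus 0.935 in A549 spheroids and 0.903 in A549 adherent cells by transcript length, but 0.321 and 0.310 by TPM. MTHFD2 relative to PGD in H1993 spheroids was 0.680 by transcript length, but 0.979 by TPM. This choice, added after seeing the data, touches levels between genes and shares, not folds of 1 gene between libraries.

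Reads in introns come from RNA that is not fully spliced or from other transcripts at the place, and they followed the exonic reads for PGD. PGD had 124 intronic reads in H1993 spheroids, 1532 in the library labelled H1993 adherent, 614 in A549 spheroids and 1252 in A549 adherent cells. The intronic log2 fold was -3.42 (-3.72 to -3.18) in the H1993 pair and -1.09 (-1.23 to -0.95) in A549, each lower than the exonic one, and -2.17 (-2.48 to -1.91) between the spheroid libraries. For TKT it was -1.08 (-1.38 to -0.80) in the H1993 pair, close to its exonic -1.17, and -1.04 (-1.29 to -0.80) in A549, lower than its exonic -0.54. The intronic fold of TKT between the spheroid libraries was -0.42 (-0.74 to -0.11), against an exonic -1.42. An intronic fold below the exonic one in A549 was not particular to PGD and TKT. PGLS, IDH1, IDH2 and ME1 had it too, each with an intronic interval below the exonic fold. For MTHFD2, TALDO1 and ME2 the intronic interval included the exonic fold, so no direction can be given. Intronic reads were scaled by the exonic library size, and a shift of intronic reads over all genes was not tested. MTHFD2 had 61, 62, 39 and 57 intronic reads in the 4 libraries, listed as H1993 spheroid, labelled H1993 adherent, A549 spheroid and A549 adherent. Its intronic log2 fold in the H1993 pair was 0.16 (-0.37 to 0.69), an interval that lies below the exonic 1.26. It was 0.74 (0.16 to 1.38) between the spheroid libraries, an interval that includes the exonic 1.11. Reads over exon junctions gave 1.17 for MTHFD2 and -2.62 for PGD in the H1993 pair, and 0.99 and -2.19 between the spheroid libraries, near the exonic folds. MTHFD2 overlaps SLC4A5 on the other strand, which had 27 to 82 exonic reads, and no source used here says whether strand entered the counting. IDH1 and PGLS also overlap genes of the other strand, with at most 30 reads in a library.

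**Figure D4:**
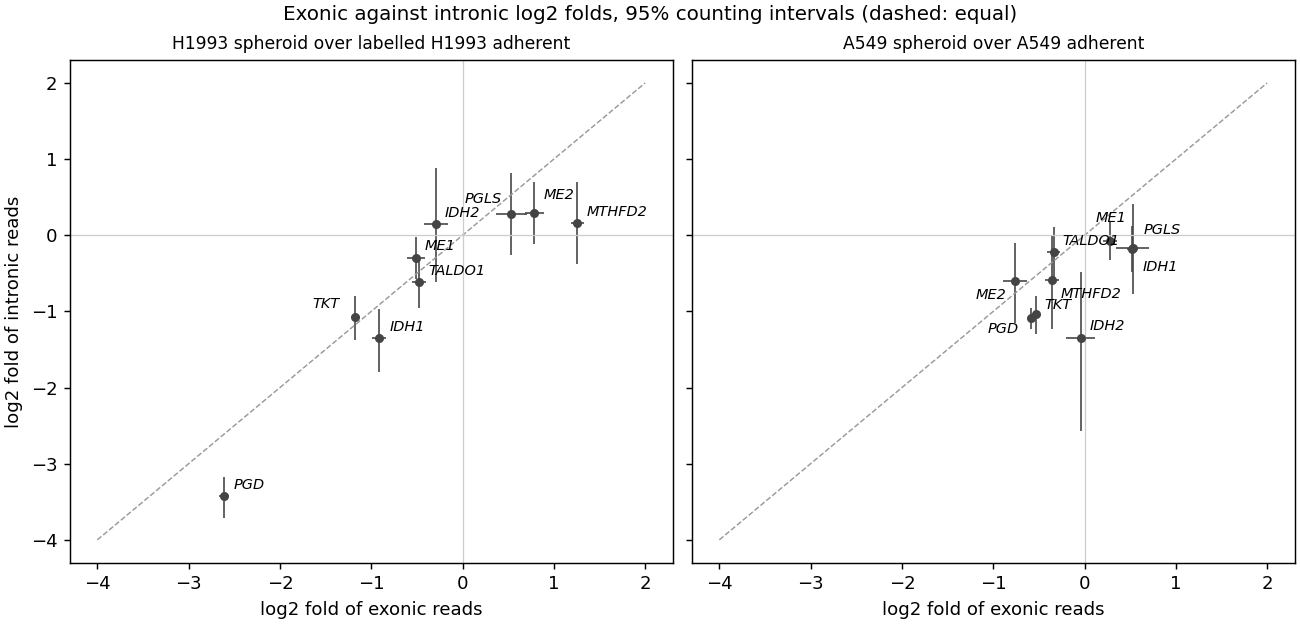
Log2 fold of intronic reads against that of exonic reads for the 9 genes in the H1993 pair and the A549 pair, with 95% counting intervals and a dashed line where both are equal. PGD lies furthest down in the H1993 pair at -2.61 and -3.42, and MTHFD2 lies to the right of the line at 1.26 and 0.16.

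Lists of related genes were counted by the same rule, under which 17.0% of all genes were higher and 18.0% lower in the H1993 pair, 12.4% and 10.3% in A549, and 18.0% and 19.1% between the spheroid libraries. For lists this short, a few genes in each direction are near those shares. Of the genes that supply the NADP pool, NADK, the cytosolic NAD kinase, had 195 TPM in H1993 spheroids, 40.9 in the library labelled H1993 adherent, 48.5 in A549 spheroids and 35.3 in A549 adherent cells. The mitochondrial NADK2 had 105 TPM in H1993 spheroids, 25.6 in the library labelled H1993 adherent, 22.8 in A549 spheroids and 20.6 in A549 adherent cells. Both were high in H1993 spheroids alone, at log2 folds of 2.18 (2.09 to 2.27) and 1.96 (1.83 to 2.09) in the H1993 pair. In the list of 7 genes of NAD and NADP supply, 4 were higher and 1 lower in the H1993 pair, with a median of 1.61. NAPRT, which makes NAD from nicotinic acid, led at 3.74 (3.57 to 3.94), while NMNAT3 was lower at -2.13 (-4.55 to -1.05) from 4 and 27 reads and stood at -1.79 between the spheroid libraries. Between the spheroid libraries, which leave out the library labelled H1993 adherent, 3 were higher and 1 lower, with NADK at 1.84 (1.76 to 1.93), NADK2 at 2.03 (1.90 to 2.17) and NAPRT at 3.54. In A549 the 1 gene that passed was NMNAT1, at 1.37. The transhydrogenase NNT was under 2-fold in all 4 pairs, and H6PD, which runs the oxidative steps inside the endoplasmic reticulum, was at -0.76 (-0.89 to -0.63) in the H1993 pair, -0.96 (-1.09 to -0.84) between the spheroid libraries and 0.82 (0.70 to 0.94) in A549.

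Among 9 further genes of malate handling, 2 were higher and 2 lower in the H1993 pair, near the share of all genes, and 0 passed in either direction in A549. ME3, the third malic enzyme, had 86 reads in H1993 spheroids, 306 in the library labelled H1993 adherent, 189 in A549 spheroids and 356 in A549 adherent cells. It stood at -1.63 (-2.01 to -1.30) in the H1993 pair and -0.97 (-1.24 to -0.72) in A549. GOT1, a transaminase of the malate shuttle, stood at 1.13 in the H1993 pair, just under 2-fold between the spheroid libraries and at 0.05 in A549. The carrier SLC25A13 stood at -1.07 in the H1993 pair, and under 2-fold at -0.41 between the spheroid libraries and -0.54 in A549. Among 10 further genes of citrate handling, 3 were higher and 0 lower in the H1993 pair, with OGDH, part of the oxoglutarate dehydrogenase complex, at 2.27 and SLC25A1, the mitochondrial citrate carrier, at 1.79. Between the spheroid libraries 2 of the malate genes were higher and 1 lower (ME3, at -1.003), and 1 of the citrate genes was higher (SLC25A1, at 1.499). OGDH at 0.98 did not pass there, and at 1.07 it was the 1 gene of the citrate list that passed in A549. PRPS1 and PRPS2, which turn ribose phosphate into the nucleotide precursor PRPP, stood at -1.13 and -1.85 in the H1993 pair. They were under 2-fold between the spheroid libraries, at 0.07 and -0.61, and in A549 they stood at -1.27 and -0.99. Of the 8 kept genes in that list of the non-oxidative branch and ribose, 1 was higher and 2 lower in the H1993 pair, and 0 and 4 in A549, where PGM2 at -1.19 and RPIA at -1.13 were among the 4. Between the spheroid libraries 2 were higher, PGM2 at 2.51 and RPIA at 1.23, and 0 lower.

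Of 13 kept folate genes besides MTHFD2, 1 was higher and 3 lower in the H1993 pair, 2 and 4 in A549, and 3 and 2 between the spheroid libraries. SHMT2, the mitochondrial enzyme that feeds one-carbon units to MTHFD2, had 182 TPM in H1993 spheroids, 55.4 in the library labelled H1993 adherent, 69.6 in A549 spheroids and 75.1 in A549 adherent cells, a pattern like that of MTHFD2. It stood at 1.64 (1.55 to 1.73) in the H1993 pair and at 1.22 (1.14 to 1.30) between the spheroid libraries. ALDH1L2, a mitochondrial enzyme that makes NADPH from formyl-tetrahydrofolate, had 29 reads in H1993 spheroids, 394 in the library labelled H1993 adherent, 968 in A549 spheroids and 392 in A549 adherent cells. Its log2 fold was -3.50 (-4.18 to -3.03) in the H1993 pair and -4.86 between the spheroid libraries, but 1.24 in A549. MTHFD2L, a close relative of MTHFD2, stood at -0.93 in the H1993 pair, -0.67 between the spheroid libraries and 0.10 in A549. TYMS, thymidylate synthase, stood at -3.60 in A549, and MTHFD1, the cytosolic folate enzyme, at -1.71 there. The 10 proliferation genes summed to 1056 CPM in H1993 spheroids, 1972 in the library labelled H1993 adherent, 172 in A549 spheroids and 2288 in A549 adherent cells. All 10 were lower in A549 spheroids, 4 were lower in the H1993 pair, and 9 were higher between the spheroid libraries, H1993 over A549, and their part in the folate values was not tested.

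Genes outside the set that share its known regulators were read beside it. Of 18 NRF2 pathway genes and targets, 1 was higher and 11 lower in the H1993 pair with a median of -1.43, 0 and 10 between the spheroid libraries with a median of -1.40, and 3 and 2 in A549 with a median of -0.18. In the H1993 pair the lowest were ABCC2, an efflux pump, at -3.25, GPX2, a glutathione peroxidase, at -2.80 from 33 and 274 reads, and GCLC, of glutathione synthesis, at -2.08. These 3 stood at -3.38, -8.61 and -2.57 between the spheroid libraries, and in A549 at -0.34, 1.32 and 0.05. In A549 BACH1, a repressor of such targets, stood at 2.29 and HMOX1, heme oxygenase, at -1.73. NFE2L2, the gene of NRF2, was at -0.38 (-0.50 to -0.26) in the H1993 pair and -0.20 (-0.30 to -0.09) in A549, and KEAP1, which marks NRF2 for degradation, at 0.63 (0.50 to 0.78) and -0.43 (-0.58 to -0.28). Of 14 kept genes that spend NADPH on redox defence, or serve it, 0 were higher and 8 lower in the H1993 pair, 1 and 9 between the spheroid libraries, and 2 and 1 in A549. The redox and NRF2 lists share genes, GCLC and TXNRD1 among them. CYBA, a subunit of NADPH oxidases, stood at -2.48 and CBR1, a carbonyl reductase, at -2.11 in the H1993 pair. They stood at -3.13 and -2.26 between the spheroid libraries, and at 0.60 and -0.03 in A549. In A549 NOX1, an NADPH oxidase, stood at 2.53, AKR1B10, a reductase with closely similar copies, at 1.38 and TXNRD1, thioredoxin reductase, at -1.55. A further list held 17 genes that spend NADPH on synthesis, or that act in the same pathways without using it directly, such as ACACA, CYB5R3 and SCD. Of these, 7 were higher and 0 lower in the H1993 pair (median 0.95), 5 and 0 between the spheroid libraries (median 0.53), and 4 and 1 in A549 (median 0.53). FASN, fatty acid synthase, stood at 1.83 in the H1993 pair, 1.01 between the spheroid libraries and 0.70 in A549. SCD, a desaturase, stood at 1.24 in the H1993 pair, -0.82 between the spheroid libraries and 2.65 in A549. Of 14 genes of serine synthesis and ATF4 targets, 4 were higher and 1 lower in the H1993 pair, 3 and 2 between the spheroid libraries, and 3 and 2 in A549. STC2, a secreted stress protein, at 2.19 and ASNS, asparagine synthetase, at 2.02 were higher in the H1993 pair, and PHGDH, the first enzyme of serine synthesis, was lower at -3.78 from 28 and 465 reads. STC2 was under 2-fold at 0.97 between the spheroid libraries, where ASNS stood at 1.04 and PHGDH at -3.72, and in A549 the 3 stood at 1.12, -0.18 and -0.86. In A549 the amino acid carrier SLC7A5 stood at -2.69 and its partner SLC3A2 at -1.75, and TRIB3, a stress-induced pseudokinase, at 2.63.

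The genes nearest to a member over the 4 libraries were found by the root mean square difference of centred log2 CPM, over 6565 other genes with a mean of at least 500 reads, as a description of 4 points. MRPL51 was nearest to PGD at 0.04, followed by C9orf3 at 0.09 and UCHL1 at 0.09. MRPL51 had 45.9 TPM in H1993 spheroids, 249 in the library labelled H1993 adherent, 181 in A549 spheroids and 298 in A549 adherent cells. FBXO28, C1QTNF6 and TET3 were nearest to MTHFD2, each at 0.04. For ME1 they were PKM at 0.01, SNAPC3 at 0.04 and DPY19L3 at 0.04, and for IDH1 CREB3 at 0.02, PTPN12 and KIAA0930 at 0.05 each. TKT was nearest to AP2B1, ZC3HAV1 and CTSB, TALDO1 to CDC27 and TEX261, PGLS to TMEM131, CHCHD10 and TERF2IP, ME2 to MDC1, QKI and CCT6A, and IDH2 to CDC42SE1, TP53BP1 and CUEDC2, at 0.02 to 0.10. Among the members themselves IDH1 and ME1 were the closest pair at 0.18, then TALDO1 and ME1 at 0.28 and MTHFD2 and ME2 at 0.31, while the member nearest to PGD was TKT at 0.51.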

How the data were processed

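Messenger RNA of 4 libraries was sequenced after a stranded mRNA preparation, per the labels' protocols. Groups are the line and culture named in the labels. The genome build was hg38, per the submitters' processing notes. No source used here names the aligner, the counter or the annotation. The deposited tables hold whole-number counts of reads per gene (exons, introns, exon junctions), TPM and RPKM, as computed by the authors, per the file headers. RPKM entered no comparison.

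Exonic counts were filtered with edgeR's filterByExpr (15273 of 43622 genes kept) and scaled by TMM. To each count a prior of 2 was added for log2 folds, whose 95% intervals are exact (Clopper-Pearson, from the 2 counts). Higher and lower were counted for kept genes at least 2-fold apart and with an interval that excluded no change. This compares libraries, not conditions. List counts cover genes other than the 9. The test over both lines was edgeR 4.0.16 (glmQLFit, glmQLFTest, R 4.3.3), with DESeq2 1.42.0 as the alternative. The methods were run on simulated counts with no line difference and with less spread than edgeR's common dispersion of 0.2325 for these data. That run does not vouch for the test over both lines. Promoter sequences are those of RefSeq. At most 1 exonic read of a member was not unique in any library.

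The members, lists and the rule for named genes (all 9 members, up to 3 called genes of each list and pair, a fixed set of related enzymes and the 3 genes nearest to each member) were chosen with earlier results of these data known. Some genes that the rule or the lists name are left unreported. As alternatives, other scalings, reads, prior counts and filters, TPM, the other tool, no line term and each library left out were tried.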

Additional observations from a re-analysis of the deposited data

Results flagged for a closer look

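In 4 of the 9 genes the log2 fold of spheroid over adherent had opposite signs in the 2 lines, each with a counting interval that excluded no change. That held for 3508 of all 15273 genes (23.0%), and whether the members differ from that share was not tested. The H1993 fold minus the A549 fold was 1.62 for MTHFD2 (counting interval 1.51 to 1.72), with 1.26 in the H1993 pair and -0.36 in A549. For ME2 it was 1.54 (1.37 to 1.71), with 0.78 in the H1993 pair and -0.76 in A549. IDH1 stood at -1.44 (-1.53 to -1.34), with -0.91 in the H1993 pair and 0.52 in A549. The difference of ME1 was -0.78 (-0.91 to -0.66), with -0.51 in the H1993 pair and 0.27 in A549. The difference was not tested, since each line and culture has 1 library, and all 4 values rest on the library labelled H1993 adherent. Between the spheroid libraries, which leave that library out, the H1993 over A549 folds of the same genes were 1.11, 1.52, -1.59 and -1.12.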

How the results depend on the processing

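The counts of members past 2-fold kept their value in 55 of 56 alternatives over the 4 pairs. With log2 of TPM plus 1, 3 members instead of 4 were lower between the spheroid libraries. Of 252 member folds under an alternative, 1 changed sign (ME2 between the libraries labelled adherent, from near 0) and the largest shift was 0.17. With scaling by library size alone the median of all genes in the A549 pair was -0.11. With TPM, 1224 genes (1888 with counts) were higher in A549 spheroids and 599 (1060 with counts) in the library labelled H1993 adherent over A549 adherent. The test over both lines called 0 genes as reported, 173 with no filter on low counts and 591 with DESeq2. With 1 library left out and no line term it called 0 to 158, the highest without H1993 spheroids. That fit sets A549 spheroids alone against both libraries labelled adherent. Spread within a culture is seen there only between the libraries labelled adherent, and the lone spheroid library is assumed to vary like them. That count therefore cannot be read as an effect of culture. The both-line fold passed the threshold for none of the 9. It changed sign under some alternatives for IDH1, IDH2, ME1 and ME2, which were near 0. The fold of MTHFD2, at 0.45 with the line term, also changed sign when H1993 spheroids were left out. ME2 was at -0.076 with library size alone and -0.009 with no filter, and IDH1 at 0.012 with no line term. With 1 library left out IDH1 ranged from -1.005 to 0.599, IDH2 from -0.453 to 0.141, ME1 from -0.70 to 0.43, ME2 from -0.75 to 0.76 and MTHFD2 from -0.13 to 0.97. The cause was not tested. No paired analysis was possible because the labels number no replicates within a group, but the line term of the test over both lines sets spheroid against adherent culture within each line. Depth limits the intronic values most, with 12 to 33 reads for IDH2.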
